A study of Malus domestica with 4 samples.

Results

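In the cortex of Granny Smith apples, 118 genes had 50% or less of their starting transcript level after 24 days at 0.4 kPa oxygen while staying near that level after 24 days at 0.8 kPa. They were chosen from the measured values. A gene was kept when it had at least 10 counts per 1000000 (CPM) in the starting sample (T0), a log2 ratio of 0.4ox over T0 of -1 or less, and a log2 ratio of 0.8ox over T0 between -0.4 and 0.5, with 0.5 CPM added to each level. The 118 genes are 0.856% of the 13777 genes that reached 10 CPM in T0, in tables of 63514 gene models. Levels in T0, 0.4ox and 0.8ox therefore describe how the genes were picked and carry no test. The condition that the choice did not use is fruit moved from 0.4 to 0.8 kPa.

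All groups are cortex of cv Granny Smith, harvested ripe and held at 1 °C, and no group carries a genetic change. T0 is fruit in normoxia after 3 days of cold acclimation. The samples 0.4ox and 0.8ox were taken after 24 days in the 2 low oxygen atmospheres, and the shifted sample is 0.4ox fruit moved to 0.8 kPa, for which the labels give no day. Each sample is 1 value per gene, merged by the authors from slices of 3 fruits for T0, 0.4ox and 0.8ox (for the shifted sample this number is not given in the sources used here), with a variance modelled by Cuffdiff. Normoxic fruit of the same storage age was not analysed here. Time in storage, low oxygen and the CO2 that the methods give for both atmospheres therefore cannot be told apart in the ratios to T0. The 2 atmospheres were each held in 1 chamber, so oxygen and chamber cannot be told apart either.

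Apple is a climacteric fruit, whose ripening is driven by ethylene, and cold storage in low oxygen slows respiration and ripening. When oxygen becomes too scarce for respiration, plant cells turn to fermentation through pyruvate decarboxylase and alcohol dehydrogenase, and transcripts of many energy-costly processes decline. Softening of the flesh rests on enzymes that take apart the pectin and hemicellulose of the cell wall, while auxin, cytokinin and jasmonate interact with ethylene during ripening.

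Total estimated counts were between 5445598 and 9553180 for T0, 0.4ox and 0.8ox, and were 5363827 for 0.8ox and 4865029 for the shifted sample in the separate table that compares them. Pyruvate decarboxylase (MDP0000800945) stood at 89.5 CPM in T0, 8762 in 0.4ox and 5697 in 0.8ox. ACC oxidase (MDP0000195885), which makes ethylene in ripening flesh, stood at 107, 2610 and 6460 CPM, whereas ACC synthase (MDP0000413933) was near the detection limit at 1.09 to 1.28 CPM. The study's reference gene for RT-qPCR (MDP0000375455) was at 53.5 CPM in T0 and at 125 and 122 CPM in 0.4ox and 0.8ox.

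The loss at 0.4 kPa was moderate for most of the genes. Their 0.4ox level was 12.2% to 49.0% of T0 with a median of 43.2%, and their 0.8ox level was 75.1% to 132% of T0 with a median of 86.7%. The log2 ratio of 0.4ox over T0 ran from -2.93 to -1.0 with a median of -1.19, and 103 of the 118 genes lay above -1.5. Only 5 genes were at -2 or below. In 0.8ox, 98 genes were below T0 and 20 were at or above it. These ratios used counts scaled to equal totals, and their modelled standard errors (SE) had medians of 0.24 for 0.4ox over T0 and 0.19 for 0.8ox over T0.

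**Figure D1:**
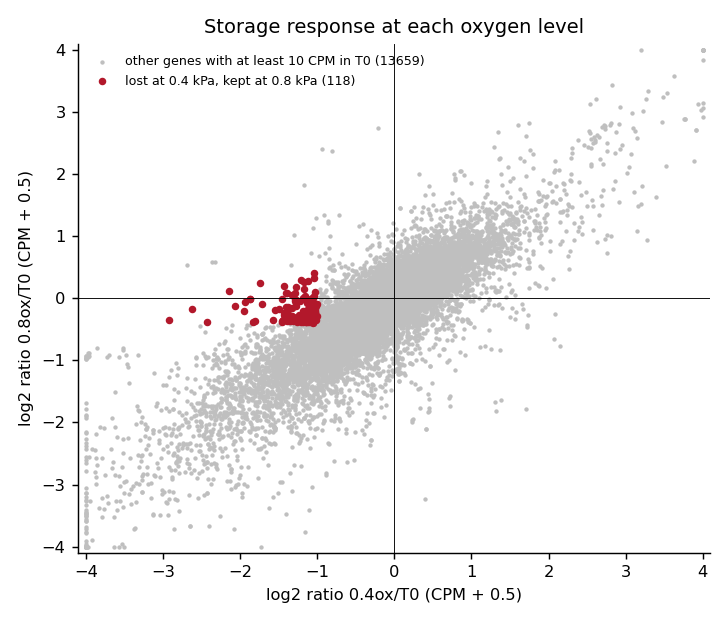
Log2 ratio of 0.4ox over T0 (x axis) against log2 ratio of 0.8ox over T0 (y axis), both on CPM plus 0.5, for the 13777 genes with at least 10 CPM in T0, with values past 4 or -4 drawn at the edge. The 118 chosen genes (red) fill a window at the upper edge of the grey cloud, with most of them between -1.5 and -1 on the x axis.

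The genes differed widely in abundance, from 10.3 to 2797 CPM in T0 with a median of 33.8 CPM, and these levels are not corrected for gene length. Together they held 1.80% of the counts in T0, 0.793% in 0.4ox and 1.62% in 0.8ox. The 5 most abundant genes, none with a description at hand, made up 50.6% of the T0 sum. Without them the sums were 8872 CPM in T0, 3696 in 0.4ox and 7944 in 0.8ox, a pattern that the choice fixes for any subset of the genes. In bulk tissue, fewer cells of a type and less RNA per cell cannot be told apart.

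By the normal-deviate test on the modelled variances, with Benjamini-Hochberg adjusted p under 0.001 as the threshold for every call below, 113 of the 118 genes were lower in 0.4ox than in T0, beside 9.18% of all tested genes. The same test called 73 of them higher in 0.8ox than in 0.4ox, beside 1.54% of all tested genes. In 0.8ox against T0 the test called 0 of the 118, with 12 at an unadjusted p under 0.05, beside 16.6% of all tested genes called. The choice of genes used all 3 contrasts, so nothing is read from these counts. Near the borders the choice separated almost equal genes. The gene nearest inside the 0.4ox limit went from 25.7 CPM in T0 to 12.6 in 0.4ox, and the nearest outside from 20.4 to 9.96. At the upper 0.8ox border the nearest gene inside had a log2 ratio of 0.40 and the nearest outside 0.53. At the lower border, where 1962 genes with the same loss in 0.4ox fell outside, the neighbours went from 18.0 to 13.5 CPM on both sides. The lowest T0 level inside was 10.3 CPM and the highest outside 9.73 CPM.

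The 0.8ox sample appears in 2 kinds of table, and its counts differ between them. In the table with the shifted sample the 0.8ox counts of many genes were far lower than in the other tables. The ratio of the 2 counts, set against its highest value of 1.19 and given as a percentage, is called the kept share here. Apple has many near-identical gene copies, and reads that fit several copies may be counted differently in the tables. By the study's methods, reads mapping to several places were removed at alignment, with no word on differences between tables. No source states the reason for the lower counts, and it was not tested. The kept share had a median of 68.7% in the 118 genes and 85.5% in the 13777 genes. It was at least 50% in 69 of the 118 (58.5%, against 68.3% of the 13777) and under 10% in 21. The value of a single gene with a low kept share depends on the table and is uncertain.

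Descriptions with an Arabidopsis counterpart were found for 31 of the 118 genes, in a shortened list of the study that is ordered by the difference between 0.8ox and 0.4ox in these same samples. The described genes are therefore those with larger differences and are no independent sample of the 118. The most strongly reduced described genes are a MATE transporter, lipoxygenase 2, a protein of unknown function (DUF584) and a pectin lyase-like protein.

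Transport across membranes was represented by a MATE efflux protein (MDP0000277246), of a family that exports metabolites and organic cations, and by K+ efflux antiporter 2 (MDP0000849234), which in Arabidopsis exchanges potassium for protons at the chloroplast envelope. The MATE gene had 44.0 CPM in T0, 5.34 in 0.4ox and 34.6 in 0.8ox, the lowest ratio of 0.4ox over T0 of all 118 genes (log2 ratio -2.93, SE 0.29). The antiporter had 10.3, 4.14 and 10.1 CPM. Both sat near T0 in 0.8ox, and the MATE gene kept 12.2% of its T0 level in 0.4ox where the antiporter kept 40.0%.

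In lipid metabolism and lipid binding, lipoxygenase 2 (MDP0000169311), whose Arabidopsis counterpart starts jasmonate synthesis in plastids, went from 19.7 CPM in T0 to 2.76 in 0.4ox and was at 17.5 in 0.8ox. Only the MATE gene had a lower ratio of 0.4ox over T0 than lipoxygenase 2 (-2.63, SE 0.41). A pair of temperature-induced lipocalins, small lipid-binding proteins that protect membranes in the cold and heat in Arabidopsis, were among the abundant members. MDP0000326990 had 793, 299 and 839 CPM and MDP0000148808 had 564, 215 and 597 CPM, with kept shares of 28.7% and 0.882%.

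The cell wall was represented by 2 described genes. A pectin lyase-like protein (MDP0000225538), of the superfamily that includes the polygalacturonases of fruit softening, had 64.8 CPM in T0, 14.3 in 0.4ox and 70.7 in 0.8ox. Arabinose kinase (MDP0000153379), which returns free arabinose to the sugar nucleotide pool for new wall polymers, had 217, 65.4 and 203 CPM. Both had a kept share over 95%, and their 0.4ox levels were 22.0% and 30.2% of T0.

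Hormone genes covered auxin and cytokinin. The auxin set held a GH3 protein (MDP0000209432), of a family that conjugates auxin to amino acids, and the Aux/IAA repressors indole-3-acetic acid inducible 11 (MDP0000250876) and auxin-induced protein 13 (MDP0000284467). The GH3 gene had 29.9, 8.56 and 35.5 CPM in the order T0, 0.4ox and 0.8ox, and the Aux/IAA genes had 97.0, 39.3 and 96.2 CPM and 48.1, 17.2 and 47.7 CPM. Of these 3 only the GH3 gene had a high kept share (91.7%, against 20.2% and 0.900%). For cytokinin, the list held histidine-containing phosphotransmitter 2 (MDP0000123837), which relays the cytokinin signal to the nucleus in Arabidopsis, at 19.7, 7.10 and 17.9 CPM, and a lysine decarboxylase family protein (MDP0000257010), whose Arabidopsis counterpart releases active cytokinin from its nucleotide, at 30.4, 10.4 and 27.1 CPM. Both cytokinin genes had a kept share over 94%, and in 0.4ox they stood at 36% and 34.4% of T0.

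Among regulators of transcription, a NAC-like gene activated by AP3/PI (MDP0000481448), whose Arabidopsis counterpart promotes leaf senescence, had 80.3 CPM in T0, 27.2 in 0.4ox and 70.7 in 0.8ox, with a kept share of 99.4%. A pair of HSI2-like 1 genes, B3-domain repressors of seed maturation genes in Arabidopsis, had 39.4, 17.1 and 47.5 CPM (MDP0000127640) and 30.9, 13.0 and 38.1 CPM (MDP0000267885). The HSI2-like pair had kept shares of 12.2% or less, and MDP0000267885 was listed at 0 in the table with the shifted sample.

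Redox and heme proteins included a thioredoxin superfamily protein (MDP0000321879), whose Arabidopsis counterpart serves assembly of the cytochrome b6f complex in thylakoids, at 21.3 CPM in T0, 10.1 in 0.4ox and 26.9 in 0.8ox. A pair of SOUL heme-binding proteins (MDP0000321156 and MDP0000289195) had 18.2, 7.10 and 19.4 CPM and 17.3, 6.87 and 19.6 CPM. These 3 genes were above T0 in 0.8ox, at 126%, 107% and 113% of it.

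The other described genes with a kept share of at least 50% were 5. An NB-ARC disease resistance protein (MDP0000241462), of the family of intracellular immune receptors, had 44.3, 11.1 and 38.4 CPM. An elongation factor G family protein (MDP0000289712), whose Arabidopsis counterpart is a part of the spliceosome, had 94.0, 45.4 and 124 CPM and the highest ratio of 0.8ox over T0 of the 118 genes (log2 ratio 0.40, SE 0.16). Isopropylmalate dehydrogenase 2 (MDP0000210336), an enzyme of leucine synthesis, had 27.3, 11.8 and 30.5 CPM. A kinesin-type motor protein (MDP0000169446) and an HXXXD-type acyl-transferase (MDP0000304620), of the family that attaches acyl groups to alcohols and amines, had 14.3, 5.98 and 14.4 CPM and 13.3, 5.01 and 13.8 CPM. Of these 5, the NB-ARC gene kept the least in 0.4ox, 25% of T0, and the elongation factor G gene the most, 48.3%.

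The remaining described genes had kept shares under 50%. They were 3 GCR2-like 2 genes at 5.88 to 6.53 CPM in 0.4ox and 22.8 to 25.5 CPM in 0.8ox, 2 kinase interacting proteins, 2 proteins of unknown function (DUF538 and DUF584) and a second elongation factor G family gene. Of this group the DUF584 gene (MDP0000681654) had the lowest ratio of 0.4ox over T0 (12.6 CPM in T0, 1.94 in 0.4ox, 9.55 in 0.8ox), and it was listed at 0 in the table with the shifted sample.

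**Figure D2:**
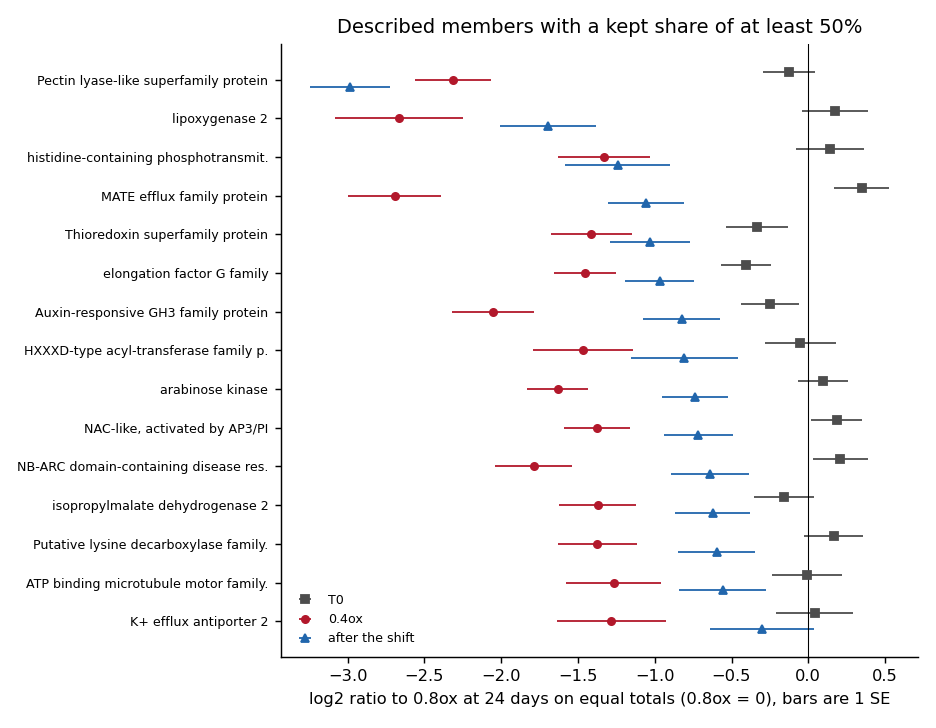
Log2 ratio to 0.8ox at 24 days, on equal totals, of T0 (squares), 0.4ox (circles) and the sample after the shift (triangles) for the 15 described genes that were tested and had a kept share of at least 50%, with bars of 1 modelled SE. The T0 points sit close to the 0.8ox line, by the choice of genes, and every triangle lies below it, with the pectin lyase-like gene below its 0.4ox point.

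After the move from 0.4 to 0.8 kPa, most of the tested genes stood below the level of fruit kept at 0.8 kPa for 24 days. By the study's methods the shift came after the 24-day sampling, so the shifted fruit had been stored longer, and it stayed in the 0.4 kPa chamber. Oxygen history, storage time and chamber cannot be told apart in this ratio. Of the 118 genes, 102 had at least 10 counts in either sample and were above 0 in both, and the other 16 had at most 7.32 counts and were not tested. Of the 102, 2 reached 10 counts in 0.8ox only. The shifted level was below 0.8ox in 97 and above it in 5, while 49.3% of all 20669 tested genes were below 0.8ox. The median log2 ratio of shifted over 0.8ox was -0.59 (quartiles -0.86 and -0.42), or 66.5% of the 0.8ox level, against 0.01 over all tested genes. The shifted level was under 50% of 0.8ox in 13 genes, between 50% and 75% in 65, and over 75% in 24.

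Single genes seldom passed the strict threshold. The test called 11 of the 102, 10 lower and 1 higher, beside 1.74% of all tested genes (0.595% lower and 1.15% higher). An unadjusted p under 0.05 was reached by 61 of the 102 (59.8%, against 14.3% of all tested genes). With a median SE of 0.26, the smallest log2 ratio that was called among all tested genes was 0.98 in size, so a gene at the median was not detectable singly at this precision. The 0.8ox value enters both the choice of the genes and this ratio, and the 0.4ox fruit is where the shifted fruit came from, so part of the common direction could follow from the choice, and the size of that part was not tested.

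3 other sets were read the same way for comparison. Of the genes whose 0.4ox and 0.8ox levels were both within the band of -0.4 to 0.5 from T0, 4666 of 5345 were tested, with a median of -0.07 and 0.279% called. Of the genes at 50% or less of T0 in both atmospheres, 1070 of 1443 were tested, with a median of -0.13 and 4.11% called. Their median log2 ratios of 0.4ox over 0.8ox were -0.04 and -0.18, against -1.04 in the tested members. The set most like the members is the 341 other genes called higher in 0.8ox than in 0.4ox, with a median log2 ratio of 0.4ox over 0.8ox of -1.34. Of these, 288 were tested, 272 were below 0.8ox after the shift, the median was -0.82 and 72 were called lower. Lying below 0.8ox after the shift was therefore not particular to the 118 genes. All sets were chosen on the same samples, and the differences between them are given without a test.

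**Figure D3:**
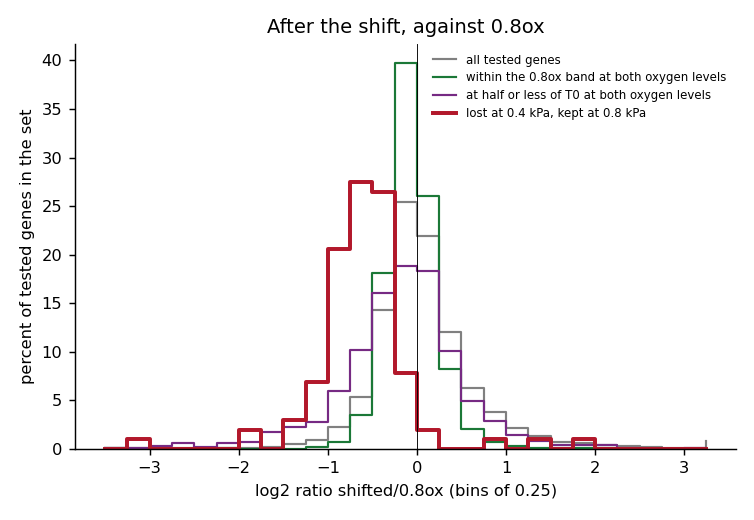
Share of tested genes (y axis, percent of the set) in bins of 0.25 of the log2 ratio of shifted over 0.8ox (x axis), with values past 3.5 or -3.5 put in the end bins. The 102 tested members (red) centre on -0.59, while all tested genes (grey), the genes inside the band in both atmospheres (green) and the genes at 50% or less of T0 in both (purple) centre between -0.13 and 0.01.

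On counts scaled to equal totals, the median of the 102 genes was -0.45 after the shift and -1.04 in 0.4ox, both relative to 0.8ox. Each ratio uses the 0.8ox counts of its own table, and these differ between tables for many genes. Equal totals therefore do not put 0.4ox and the shifted sample strictly on 1 scale. Over all tested genes the medians were 0.15 after the shift and -0.01 in 0.4ox. The gene numbers that follow are not corrected for this offset or for the counting. The shifted level lay between 0.4ox and 0.8ox in 89 genes, above 0.8ox in 8 and at or below 0.4ox in 5. Being chosen low in 0.4ox tilts this count toward a level above 0.4ox after the shift. The pectin lyase-like gene (-2.98 after the shift, SE 0.26, and -2.31 in 0.4ox, SE 0.25) was the only described gene among the 5. The gaps to 0.4ox were not tested.

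**Figure D4:**
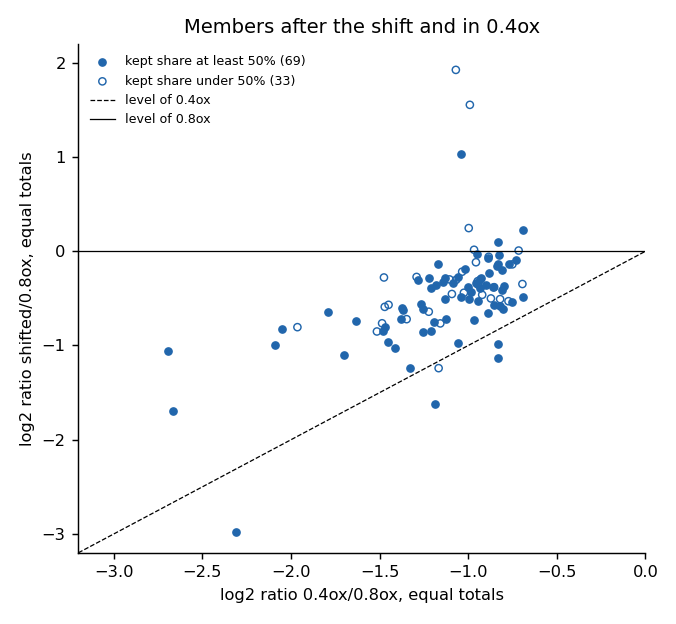
Log2 ratio of 0.4ox over 0.8ox (x axis) against log2 ratio of shifted over 0.8ox (y axis), both on equal totals, for the 102 tested members, with filled points for the 69 genes with a kept share of at least 50% and open points for the other 33. Most points (89) lie between the solid line (level of 0.8ox) and the dashed line (level of 0.4ox), and 5 lie on or below the dashed line. Each axis uses the 0.8ox counts of its own table, and the offset between the tables is not corrected.

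The kept share moved with the result. Among the 69 genes with a kept share of at least 50%, 67 were below 0.8ox, with a median of -0.65 and 10 called lower. The 33 other tested genes had a median of -0.50. All 10 genes called lower were among these 69, and the 1 called higher, MDP0000742328, had a kept share of 3.51%. The part of the counting in this difference was not tested.

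Of the tested members, the pectin lyase-like gene lay furthest from 0.8ox after the shift. It had an estimated count of 542 ± 58.7 (modelled SD) in 0.8ox and 62.1 ± 9.0 after the shift, 11.5% of 0.8ox (log2 ratio -3.13, SE 0.26, Benjamini-Hochberg adjusted p = 1.17e-29). Polygalacturonase (MDP0000326734), a pectin-degrading enzyme of the same superfamily, is no member, with 2.23 CPM in T0, 4.38 in 0.4ox and 96.1 in 0.8ox. It had 736 counts in 0.8ox and 15.8 in the shifted sample (log2 ratio of shifted over 0.8ox -5.54, SE 0.40). The other wall gene, arabinose kinase, had 1507 ± 160 counts in 0.8ox and 819 ± 86.7 after the shift and missed the threshold (log2 ratio -0.88, SE 0.22, Benjamini-Hochberg adjusted p = 0.00223). Of the 39 genes with a cell wall description in the study's list, 18 were tested and 5 were called lower (27.8%). Of all described genes in that list, 49 of 364 tested were called lower (13.5%), with a median log2 ratio of -0.82 against -0.88 in the 23 tested described members. That list is chosen on the same 0.8ox and 0.4ox samples, and the shares were not compared by a test.

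Lipoxygenase 2 and the MATE gene, the pair with the lowest ratios in 0.4ox, were also called lower than 0.8ox after the shift. On equal totals both lay above their 0.4ox level, a side to which being chosen low in 0.4ox tilts them. Relative to 0.8ox, lipoxygenase 2 was at -1.70 after the shift and -2.66 in 0.4ox, and the MATE gene at -1.06 and -2.69. Lipoxygenase 2 had 126 ± 16 counts in 0.8ox and 35.4 ± 6.16 after the shift (log2 ratio -1.84, SE 0.31, Benjamini-Hochberg adjusted p = 5.23e-07). The MATE gene had 264 ± 29.9 and 115 ± 14.8 counts (log2 ratio -1.20, SE 0.25, Benjamini-Hochberg adjusted p = 0.000102). Of all described genes of lipid metabolism and lipid binding 3 of 16 tested were called lower (18.8%), and of those of transport 6 of 28 (21.4%), beside the 13.5% of all described genes. Specialised metabolism had 4 of 19 (21.1%). Lower shares were those of signalling and defence (2 of 28, 7.14%), hormone response and redox and heme proteins (each 1 of 21, 4.76%). Transcription regulators had 2 of 53 (3.77%) and cell division 0 of 4. None of these shares was compared by a test.

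The other described genes called lower were the elongation factor G gene and the thioredoxin. The first had 860 ± 94.3 counts in 0.8ox and 399 ± 44.2 after the shift (log2 ratio -1.11, SE 0.22, Benjamini-Hochberg adjusted p = 7.21e-05). The thioredoxin had 198 ± 23.3 and 88.0 ± 12.0 counts (log2 ratio -1.17, SE 0.26, Benjamini-Hochberg adjusted p = 0.000411), and was past the threshold as deposited but not on equal totals (0.00281). Both had been above T0 in 0.8ox.

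Hormone genes lay lower without passing the threshold. The phosphotransmitter had 131 ± 17.8 counts in 0.8ox and 50.2 ± 9.77 after the shift (log2 ratio -1.38, SE 0.34, Benjamini-Hochberg adjusted p = 0.00251), and the GH3 gene had 251 ± 29.5 and 129 ± 16.2 (log2 ratio -0.97, SE 0.25, Benjamini-Hochberg adjusted p = 0.00416). The lysine decarboxylase family gene was at 60.0% of 0.8ox and indole-3-acetic acid inducible 11 at 75.1%. Auxin-induced protein 13 had 3.32 and 3.21 counts and was not tested. The NAC-like gene stood in the same range, with 543 ± 58.3 and 299 ± 33.6 counts (log2 ratio -0.86, SE 0.22, Benjamini-Hochberg adjusted p = 0.00516), and so did the lipocalin MDP0000326990 at 53.4% of 0.8ox and the acyl-transferase at 51.8%.

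The described genes closest to 0.8ox after the shift were the antiporter at 73.6%, the lipocalin MDP0000148808 at 74.8% and indole-3-acetic acid inducible 11. This lipocalin and indole-3-acetic acid inducible 11 had kept shares of only 0.882% and 20.2%, so their places are uncertain. The antiporter had 59.5%. Of the genes without a description, MDP0000157238 was at 29.4% of 0.8ox (279 ± 31.5 counts in 0.8ox and 81.9 ± 11.4 after the shift, log2 ratio -1.77, SE 0.26). MDP0000310936 was at 41.3% (2880 ± 313 and 1189 ± 126 counts, log2 ratio -1.28, SE 0.22). Both were called lower than 0.8ox. So were MDP0000291807, MDP0000254535 and MDP0000364261, with log2 ratios of -1.11, -0.99 and -1.24. Like the thioredoxin, these passed the threshold as deposited but not on equal totals (Benjamini-Hochberg adjusted p = 0.00317, 0.00548 and 0.00245). On equal totals, MDP0000157238 was at -1.62 after the shift (SE 0.26) and -1.19 in 0.4ox (SE 0.25), relative to 0.8ox. MDP0000310936 was at -1.14 (SE 0.22) and -0.83 (SE 0.20). These gaps below 0.4ox were not tested. In the opposite direction, MDP0000742328 had 22.6 ± 4.8 counts in 0.8ox and 77.8 ± 10.7 after the shift (log2 ratio 1.78, SE 0.36, Benjamini-Hochberg adjusted p = 8.37e-05). MDP0000620433, with a kept share of 82.8%, had 178 ± 21.2 and 329 ± 36.8 counts (log2 ratio 0.89, SE 0.24, Benjamini-Hochberg adjusted p = 0.00644) and did not pass the threshold as deposited.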

How the data were processed

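The deposited tables hold estimated counts per gene model and, per the file headers, the variance that Cuffdiff modelled for each count. The authors cleaned reads with ERNE, aligned them with TopHat2 and Bowtie2 to the Malus domestica v1.0 genome and merged the libraries of a condition with Cuffdiff. Tool versions are not given in the sources used here. There are 4 tables of 2 conditions each, and no column was left unused for want of a sample (0 columns).

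The members and gene lists were chosen with earlier results of these data known. CPM were made by column sums, and 0.5 CPM was added for the ratios of the choice. For each pair, genes with 10 counts in either condition and above 0 in both were tested: the log2 ratio over its SE from the deposited variances was taken as a normal deviate, two-sided, with Benjamini-Hochberg adjustment over all tested genes and a threshold of 0.001. Only the table with the shifted sample was used as deposited. The tables with T0 and of 0.8ox against 0.4ox are not scaled between conditions and were set to equal totals. With 1 merged value per condition, p-values rest on the modelled variances, which for T0, 0.4ox and 0.8ox come from 3 biological replicates per the methods. What the libraries of the shifted sample were is not given in the sources used here, so their spread may be technical. Python 3.11.15, numpy 2.4.6, pandas 2.3.3, scipy 1.17.1, R 4.3.3 and edgeR 4.0.16 were used. The test was checked on simulated counts drawn from the deposited variances, which were also given to the test. Such a check cannot show whether the modelled variances suit these libraries.

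Named genes were those called after the shift (up to 10 in each direction), the 10 most abundant in T0, the 10 with the lowest ratio of 0.4ox over T0, up to 4 per keyword group of the descriptions, and the genes next to each border of the choice, of which about 30 were taken. The keyword groups with described members are hormone response, transcription regulators, cell wall, transport, lipids, redox and heme proteins, specialised metabolism, signalling and defence, cell division, and others; sugar and starch metabolism had 0 members among its 14 described genes. Alternatives varied the variance, minimum count, pseudocount, scaling, threshold, test, minimum level and treatment of copies. Restricting the calls to genes with a kept share of at least 50%, counting identical genes once and requiring 10 counts in both conditions, and the comparison with other genes called higher in 0.8ox, were chosen after seeing the data. Sequences were not used here.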

Additional observations from a re-analysis of the deposited data

How the results depend on the processing

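The 11 calls after the shift became 50 (47 lower, 3 higher, 10.5% of all tested genes called) when the variances were divided by 3, the libraries of a condition, and 30 (28 lower, 2 higher, 5.08% of all tested genes) at an adjusted p under 0.05. Both follow from the construction of the alternative. The other 9 settings gave 8 to 13 calls, with 11 by edgeR's exact test. That test took its dispersions from the same modelled variances and used the same counts, so it is no independent check. Counting identical genes once could change nothing, as 0 members had counts identical to another member in all of T0, 0.4ox and 0.8ox. The GCR2-like 2 genes MDP0000161117 and MDP0000145911 shared their T0 and 0.4ox counts (219 and 32.0). They differed slightly in 0.8ox (147.5 and 147.2) and stayed separate members. On equal totals 8 were called (6 lower, 2 higher), and over all genes the split moved from 237 higher and 123 lower to 319 higher and 86 lower, with the median of all genes at 0.15 in place of 0.01. The median of the members stayed between -0.65 and -0.45. The choice gave 82 to 149 genes under other minimum levels, pseudocounts and scaling, and 69 when genes needed a kept share of 50%. Centring the ratios of the choice on their medians gave 98 genes, of which 71 were among the 118. The 254 values of single genes under alternatives cover 29 tested genes, those with a description or a call. None of these values changed direction, and 230 kept their side of the threshold. Only the pseudocount and the scaling alter the ratio, so the direction could not change under the other settings. Over all 102 tested members, 94 were below 0.8ox and 8 above on equal totals, against 97 and 5 as deposited. No paired analysis was possible because each table holds 1 value per condition, and for the same reason no replicate could be left out. The modelled SE, with a median of 0.26 after the shift, limits what single genes can show.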
